A study of Homo sapiens with 12 samples.

Results

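The comparison described here sets IMR32 cells that received an siRNA against MYCN together with an siRNA against HAND2 (the combined knockdown, 3 samples) against IMR32 cells that received the HAND2 siRNA alone (siHAND2, 3 samples). It therefore shows what differed when the MYCN siRNA was given with the HAND2 siRNA, in cells with reduced HAND2 in both groups. The sample titles name 2 siRNAs for the combined samples and 1 for siHAND2, and give no doses. An effect of the number or total dose of siRNAs was not tested. These are 6 of the 12 samples of the series, and all genes of the deposited table were used. The other groups, read only to place the comparison, received a control siRNA (siCtrl, 3 samples) or the MYCN siRNA alone (siMYCN, 3 samples). IMR32 is an established human neuroblastoma line with amplified MYCN. All cells were electroporated with the Nucleofector system and grown for 72 h before RNA was extracted and sequenced. Each target was hit with 1 siRNA sequence, numbered 2 for MYCN and 3 for HAND2 in the labels, so effects of the target and off-target effects of its siRNA cannot be told apart. Nothing in the labels says that the 3 samples of a group came from separate cultures, so p-values measure only the spread between these samples.

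MYCN is a transcription factor of the MYC family. It binds DNA with its partner MAX, preferably at the E-box CACGTG, and is known for driving ribosome production, nucleotide synthesis and proliferation in neuroblastoma. HAND2 is a basic helix-loop-helix factor of the sympathetic lineage, and it belongs to the group of factors that maintain the adrenergic identity of neuroblastoma cells. When MYCN falls, neuroblastoma lines are known to slow their growth and to take on features of neurons.

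The E-box CACGTG was searched in 300-base promoter windows, from 250 bases before to 50 bases after the RefSeq start of each gene in GRCh38.p14. It reads the same on both strands, so a match on one strand is also a match on the other. A window was found for 10201 of the 12680 genes tested, or 80.4%, and 10.4% of them held the motif. Printed here are stretches of 30 bases, 5′ to 3′ on the strand of the gene, from genes of the growth programmes that carry the largest falls below. They were picked among genes whose window held the motif, so they do not show how common it is among falling genes. Other genes with large falls, such as SLC7A2 and PAICS, are not printed. Capitals mark the motif, the bases are those of RefSeq, and the coordinates are in hg19, the build of the deposited table.
SLC38A5, chrX:48328837-48328866: tcctgtagcggaCACGTGgcttgcctggga
LDHA, chr11:18416011-18416040: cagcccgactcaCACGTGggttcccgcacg
RRP9, chr3:51975908-51975937: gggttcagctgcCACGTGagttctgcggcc
UTP20, chr12:101673861-101673890: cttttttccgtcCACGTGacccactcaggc
FBL, chr19:40336996-40337025: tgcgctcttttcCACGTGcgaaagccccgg
NOP14, chr4:2965101-2965130: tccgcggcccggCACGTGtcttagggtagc
MTHFD1, chr14:64855044-64855073: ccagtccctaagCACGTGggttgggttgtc
PPAT, chr4:57301946-57301975: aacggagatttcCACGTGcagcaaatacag
HSPD1, chr2:198365069-198365098: cggccctggcgaCACGTGaaaaaatcaccc
MCM2, chr3:127317231-127317260: gctttggtgggtCACGTGaaccacttttcg
FEN1, chr11:61560341-61560370: tggcgagcaggtCACGTGacgggagcgcgg
PLK1, chr16:23690000-23690029: cccaggctatccCACGTGttcgggcgtccg

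The genes on the minus strand are SLC38A5, RRP9, FBL, NOP14, PPAT and HSPD1. The motif began before the RefSeq start in 10 of these genes, from 5 bases in RRP9, where it crosses the start, to 206 bases in SLC38A5. It lay after the start in FBL, by 6 bases, and in NOP14, by 15 bases. The stretch of LDHA is 1 of 2 motifs in its window. The PPAT stretch falls inside the neighbouring gene PAICS, which is read in the other direction, and the HSPD1 stretch also lies in the window of HSPE1. Stretches of SLC38A5, UTP20, PPAT, HSPD1 and PLK1 lie outside the gene as the deposited table bounds it, and the others lie inside it. Among all tested genes with a window, those called lower in the combined knockdown on the rescaled scale held the motif in 14.0% (349 of 2489). Those called higher held it in 7.64% (201 of 2630), and those not called in 10.1%. On the deposited scale the shares were 13.0%, 6.93% and 9.48%. A match says that these letters are present and nothing about binding.

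MYCN itself (chr2:16080560-16087130, plus strand) was lower in every combined sample than in any siHAND2 sample. Its deposited level was 899, 844 and 802 CPM (read counts scaled to library size) in siHAND2, and 555, 458 and 433 CPM in the combined knockdown. The mean fell from 849 ± 48.7 to 482 ± 64.3 CPM (SD, n = 3), so 56.8% of the siHAND2 level was left. On the log2(CPM + 1) scale the change was -0.82 ± 0.12 (SE), with a limma adjusted p of 5.94e-06. In bulk RNA, fewer cells with a transcript and less of it per cell cannot be told apart. On the rescaled scale defined below it was -0.62, with 65.0% left (limma adjusted p = 3.67e-06). With the siMYCN samples against siCtrl, 67.5% of MYCN was left, or 68.0% after rescaling. The difference between the 2 knockdown effects was -0.26 on the log2 scale, with a limma adjusted p of 0.35, and -0.067 after rescaling (adjusted p = 0.69). The MYCN locus overlaps MYCNOS on the other strand, and whether reads were counted by strand is not given in the sources used here.

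HAND2 (chr4:174447652-174451379, minus strand) stood at 54.3, 64.9 and 67.7 CPM in siHAND2 and at 86.3, 67.1 and 67.2 CPM in the combined knockdown. The groups overlapped, and both were far under the 239 CPM of siCtrl, at 26.0% and 30.7% of it. The change of 0.23 on the log2 scale was not called on the deposited scale (limma adjusted p = 0.13), while on the rescaled scale HAND2 was 135% of the siHAND2 level and was called (0.43, limma adjusted p = 0.0016). Without combined replicate 3 the deposited change was 0.29 and was called. HAND2 overlaps HAND2-AS1 on the other strand.

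**Figure D1:**
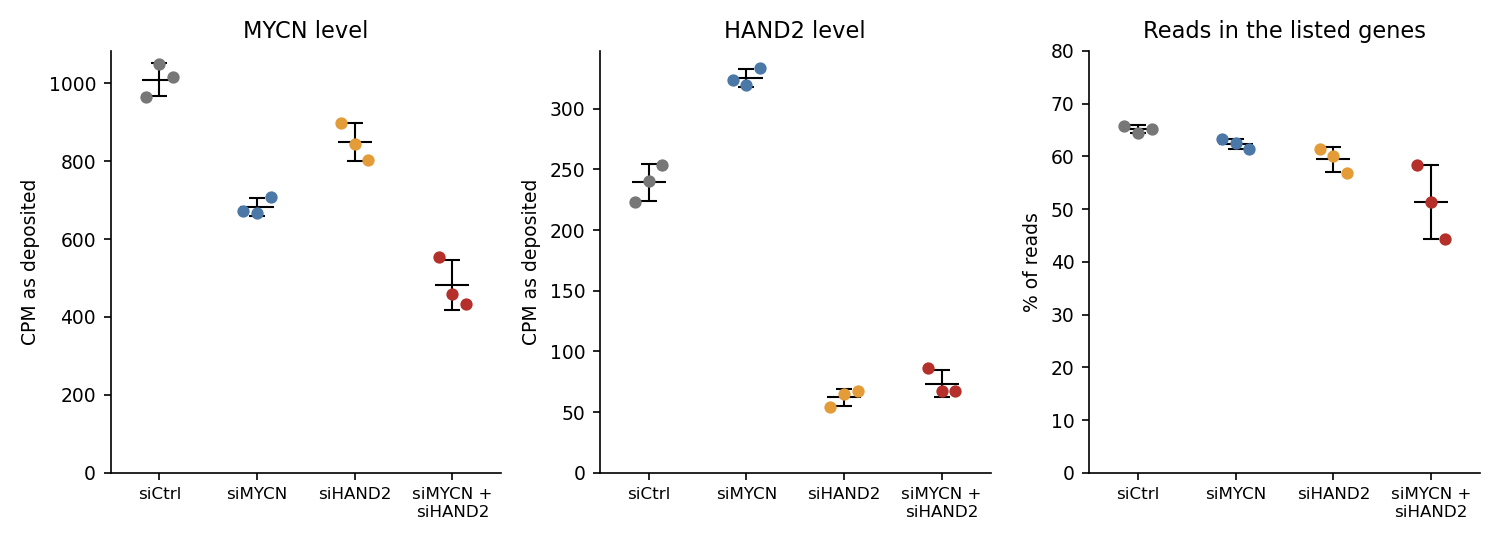
MYCN level, HAND2 level (both in deposited CPM) and the percentage of reads in the listed genes, for each of the 12 samples; lines and bars are the mean and SD of 3 samples. The combined samples have the lowest MYCN, at 433 to 555 CPM, HAND2 near that of siHAND2, and the widest spread in read share, from 44.3 to 58.4%.

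The share of a library's reads that fell in the listed genes was 61.4, 60.1 and 56.8% in siHAND2 and 58.4, 51.4 and 44.3% in the combined knockdown. The groups overlapped, although the combined sample was the lower one at each replicate number. The mean share was 59.4% ± 2.39 and 51.4% ± 7.04 (SD, n = 3), a difference of -8.05 percentage points with an exact permutation p of 0.2 (two-sided, 3 against 3 samples cannot go below 0.1). Leaving out 1 sample at a time gave a difference of -11.6 to -4.53 points, the smallest without combined replicate 3. Since CPM is taken over all reads, a lower share lowers the deposited CPM of the average gene. The values were therefore also rescaled, with 1 factor per sample, the median over genes with a mean of at least 5 CPM of the ratio between the sample and the gene's geometric mean. The factors of the combined samples were 0.99, 0.87 and 0.73. Depth was 31.6 to 64.1 M reads per sample, so 3 reads corresponded to 0.0468 to 0.0950 CPM, for counting error only. What the reads outside the listed genes are was not tested.

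Across the 12680 genes with a mean of at least 1 CPM, the scale set the balance between rises and falls. On the deposited scale 5104 genes (40.3%) were called at a limma adjusted p under 0.05, of which 1109 (8.75% of those tested) were higher and 3995 (31.5%) lower in the combined knockdown, and the median change of all genes was -0.15. On the rescaled scale 6300 (49.7%) were called, 3305 (26.1%) higher and 2995 (23.6%) lower, with a median of 0.03. Far fewer changed by at least 1 on the log2 scale: 46 higher and 167 lower on the deposited scale, 119 higher and 56 lower on the rescaled scale. Deposited calls ranged from 3905 to 6962 when single samples were left out, and the higher calls rose to 1793 without combined replicate 3. The 3 combined samples lay all above the 3 siHAND2 samples in 9.6% of the genes tested and all below them in 30.8%, or in 27.2% and 25.1% after rescaling. Rescaling moves all genes of a sample alike, so these shares of all genes stand behind every list count below. Counts and changes are given on both scales, the deposited one first, and levels in CPM are as deposited.

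The falls of largest size hit transporters, enzymes and a matrix protein. SLC38A5 (chrX:48316920-48328645), a carrier of glutamine and other neutral amino acids, was at 23.1, 21.7 and 21.1 CPM in siHAND2 and at 6.11, 5.05 and 4.02 CPM in the combined knockdown. The groups lay far apart, and the change was -1.94 ± 0.12 (limma adjusted p = 2.1e-11), or -1.77 after rescaling. SLC7A2, a carrier of cationic amino acids, went from 21.0, 19.6 and 18.5 to 4.89, 5.23 and 4.05 CPM, a change of -1.86 and -1.69. VCAN, the matrix proteoglycan versican, went from 74.9, 61.3 and 51.4 to 19.0, 21.8 and 16.5 CPM, a change of -1.65 and -1.46. No combined sample reached a siHAND2 sample in any of these genes, which the choice of the largest falls required.

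The other 7 of the 10 largest falls lay between -1.56 and -1.38 on the deposited scale and between -1.41 and -1.22 on the rescaled scale. They were PIEZO1, a mechanically gated cation channel (13.2 to 3.82 CPM), and AK4, a mitochondrial adenylate kinase (16.0 to 4.81 CPM). NT5DC3, annotated as a 5′-nucleotidase domain protein, went from 39 to 12.7 CPM, and MTAP, which recycles methylthioadenosine from polyamine synthesis, from 12.3 to 3.80 CPM. GABRA5, a subunit of the GABA-A receptor, fell from 5.85 to 1.47 CPM, and SLC29A1, a nucleoside transporter, from 15.4 to 5.29 CPM. PALM2-AKAP2, at 9.06 and 2.70 CPM, shares its exons with PALM2 and AKAP2 on the same strand, so its counts are uncertain. VCAN and PIEZO1 overlap a gene on the other strand.

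Ribosome biogenesis fell as a whole. Of the 40 members, which build and modify ribosomal RNA and assemble the subunits, 40 were called lower on both scales, against 31.5% and 23.6% of all genes, with a median of -0.94 and -0.75. RRP9, a component of the U3 small nucleolar ribonucleoprotein, was at 28.2, 28.0 and 26.6 CPM in siHAND2 and at 13.9, 11.1 and 8.78 CPM in the combined knockdown. The 2 groups did not overlap, and the change was -1.24 ± 0.12 (limma adjusted p = 6.2e-08), or -1.06 after rescaling. NOLC1, a nucleolar chaperone of snoRNPs, fell by 1.22 and 1.02, UTP20, of the small subunit processome, by 1.22 and 1.03, and nucleolin (NCL) by 1.19 and 0.99. DKC1, the pseudouridine synthase dyskerin, fell by 1.19 and 0.99, NOP14 by 1.15 and 0.96, and the rRNA methyltransferase fibrillarin (FBL) by 1.10 and 0.91. In siMYCN against siCtrl (16.3% of genes lower; 22.5% rescaled), 39 of the 40 were called lower on either scale, with a median of -0.74 and -0.73. The interaction tests whether the MYCN siRNA changed a gene by the same amount with and without the HAND2 siRNA. It was called for none of the 40 on either scale, against 4.01% and 6.14% of all genes. Without combined replicate 1 it was called for up to 16 on the deposited scale. The E-box was in 11 of the 32 promoter windows found (34.4%), against 10.4% of all genes. It lay wholly before the start in 2 of the 32 (6.25%), UTP20 printed above among them, against 9.20% of all genes. The higher share therefore came from motifs that crossed the start, as in RRP9, or lay after it.

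Enzymes of one-carbon metabolism, nucleotide and polyamine synthesis also fell, with 28 of 30 called lower and none higher on both scales, against 31.5% and 23.6% of all genes called lower, and medians of -0.76 and -0.57. PAICS, which carries out consecutive steps of purine synthesis, was at 170, 163 and 147 CPM in siHAND2 and at 73.8, 60.3 and 53.3 CPM in the combined knockdown. Its groups were clearly apart, with a change of -1.35 ± 0.12 (limma adjusted p = 1.7e-08) and of -1.16 after rescaling. MTHFD1, of folate metabolism, fell by 1.27 and 1.07, and CAD, the first enzyme of pyrimidine synthesis, by 1.22 and 1.02. PPAT, the committed step of purine synthesis, fell by 1.17 and 0.98, and ATIC, its last enzyme, by 1.12 and 0.93. The E-box was found in 7 of 25 windows (28.0%), and before the start in 6 of them. With MYCN knocked down alone, 26 of the 30 were called lower, and 28 after rescaling, against 16.3% and 22.5% of all genes. The interaction was called negative for 3 on the deposited and 2 on the rescaled scale, against 3.65% and 4.47% of all genes. MTHFD1 was among them (-0.64, limma adjusted p = 0.037, and -0.45, adjusted p = 0.0098, rescaled). The deposited call of MTHFD1 was lost in 8 of the 12 fits without a single sample, namely without any 1 siCtrl or siMYCN sample and without siHAND2 replicate 1 or 2, with values from -0.69 to -0.57.

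All 15 chaperonins and HSP60 proteins, which fold newly made proteins in the cytosol and mitochondria, were called lower on both scales. Their medians were -0.69 and -0.49, and 31.5% and 23.6% of all genes were called lower. HSPD1, the mitochondrial HSP60, was at 666, 684 and 643 CPM in siHAND2 and at 355, 283 and 236 CPM in the combined knockdown. That is a change of -1.21 ± 0.13 (limma adjusted p = 1.2e-07), or -1.01 rescaled, with no overlap. TRAP1, a mitochondrial HSP90, fell by 0.96 and 0.76, and HSPE1, the HSP10 partner of HSPD1, by 0.81 and 0.61. HSPD1 and HSPE1 overlap head to head.

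In glycolysis 16 of 21 genes were called lower (76.2%, against 31.5% of all genes) and 2 higher (9.52%, against 8.75%), with a median of -0.55. Rescaled counts were 15 lower (71.4%, against 23.6%) and 4 higher (19.0%, against 26.1%), with a median of -0.35. LDHA, the lactate dehydrogenase subunit, was at 330, 316 and 295 CPM in siHAND2 and at 142, 126 and 98.4 CPM in the combined knockdown, less than the lowest siHAND2 sample in each case. It changed by -1.37 ± 0.12 (limma adjusted p = 2.2e-08), or by -1.17 rescaled. ENO1, an enolase, fell by 1.29 and 1.09, and SLC16A1, the lactate carrier MCT1, by 1.13 and 0.93. The 4 genes called higher after rescaling were the neuronal enolase ENO2, the glucose transporter SLC2A3, ALDOC and HK1. The counts of higher calls ranged from 0, without combined replicate 1, to 4, without combined replicate 3, on the deposited scale.

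Of 19 amino acid transporters, 12 were called lower (63.2%, against 31.5% of all genes) and none higher, with a median of -0.47. Rescaled counts were 11 lower (57.9%, against 23.6%) and 3 higher (15.8%, against 26.1%), with a median of -0.29. SLC1A5, a glutamine carrier, fell from 43.7 to 20.5 CPM (-1.09; -0.90 rescaled). Cholesterol synthesis had 12 of 24 lower and 1 higher (median -0.33), and 11 lower and 2 higher rescaled (median -0.14). Of the 43 nuclear genes of oxidative phosphorylation, 7 were called lower (16.3%, against 31.5% of all genes) and 1 higher, with a median of -0.10. After rescaling 4 were lower and 11 higher (25.6%, near the 26.1% of all genes), with a median of 0.09. The median of all genes moved from -0.15 to 0.03 between the scales. Without combined replicate 1, 25 were called lower on the deposited scale.

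The translation machinery had smaller median changes than the genes that build ribosomes. Of all genes, 31.5% were called lower and 8.75% higher, or 23.6% and 26.1% after rescaling. Of 37 initiation factors, 34 were called lower and 1 higher (median -0.49), and 29 lower and 1 higher after rescaling (median -0.29). EIF5A, which carries the amino acid hypusine, fell by 1.01 and 0.81, and the EIF3 subunit EIF3B by 0.90 and 0.70. The aminoacyl tRNA synthetases, which charge tRNAs, had 14 of 20 lower on both scales, with none higher on the deposited scale and 2 higher on the rescaled scale (medians -0.49 and -0.29).

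Among the 79 cytosolic ribosomal proteins, 48 were called lower on the deposited scale (60.8%, against 31.5% of all genes), with a median of -0.34. Rescaled, 26 were called lower (32.9%, against 23.6%), with a median of -0.14, and none was higher on either scale. RPS2 was at 1591, 1502 and 1442 CPM in siHAND2 and at 973, 870 and 711 CPM in the combined knockdown, without overlap (-0.84, limma adjusted p = 7.2e-06; -0.64 rescaled). RPL12 fell by 0.78 and 0.58, RPL3 by 0.76 and 0.56, and RPS6 by 0.53 and 0.33. With MYCN knocked down alone, 71 of the 79 were called lower (median -0.50), and 72 after rescaling (median -0.49). Of all genes, 16.3% and 22.5% were called lower there. The interaction was called positive, that is with a smaller fall when HAND2 was also knocked down, for none on the deposited scale and for 8 on the rescaled scale, against 0.355% and 1.67% of all genes. These 8 were RPL5, RPL7A, RPL17, RPL21, RPL32, RPL36, RPS3 and RPS14. The counts rested on single libraries. The 48 became 29 without combined replicate 2, the 26 became 15 without combined replicate 2 and 53 without combined replicate 3, and the 8 became 1 without siCtrl replicate 1 and 30 without combined replicate 2. Ribosomal protein genes have many near-identical pseudogenes, so their counts are uncertain. The mitochondrial ribosomal proteins had 40 of 77 lower (51.9%, against 31.5% of all genes) and none higher, with a median of -0.30. Their rescaled counts were 29 lower (37.7%, against 23.6%) and 4 higher (5.19%, against 26.1%), with a median of -0.11. Without siHAND2 replicate 2 the 29 became 19, and without combined replicate 1 the 40 became 61.

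**Figure D2:**
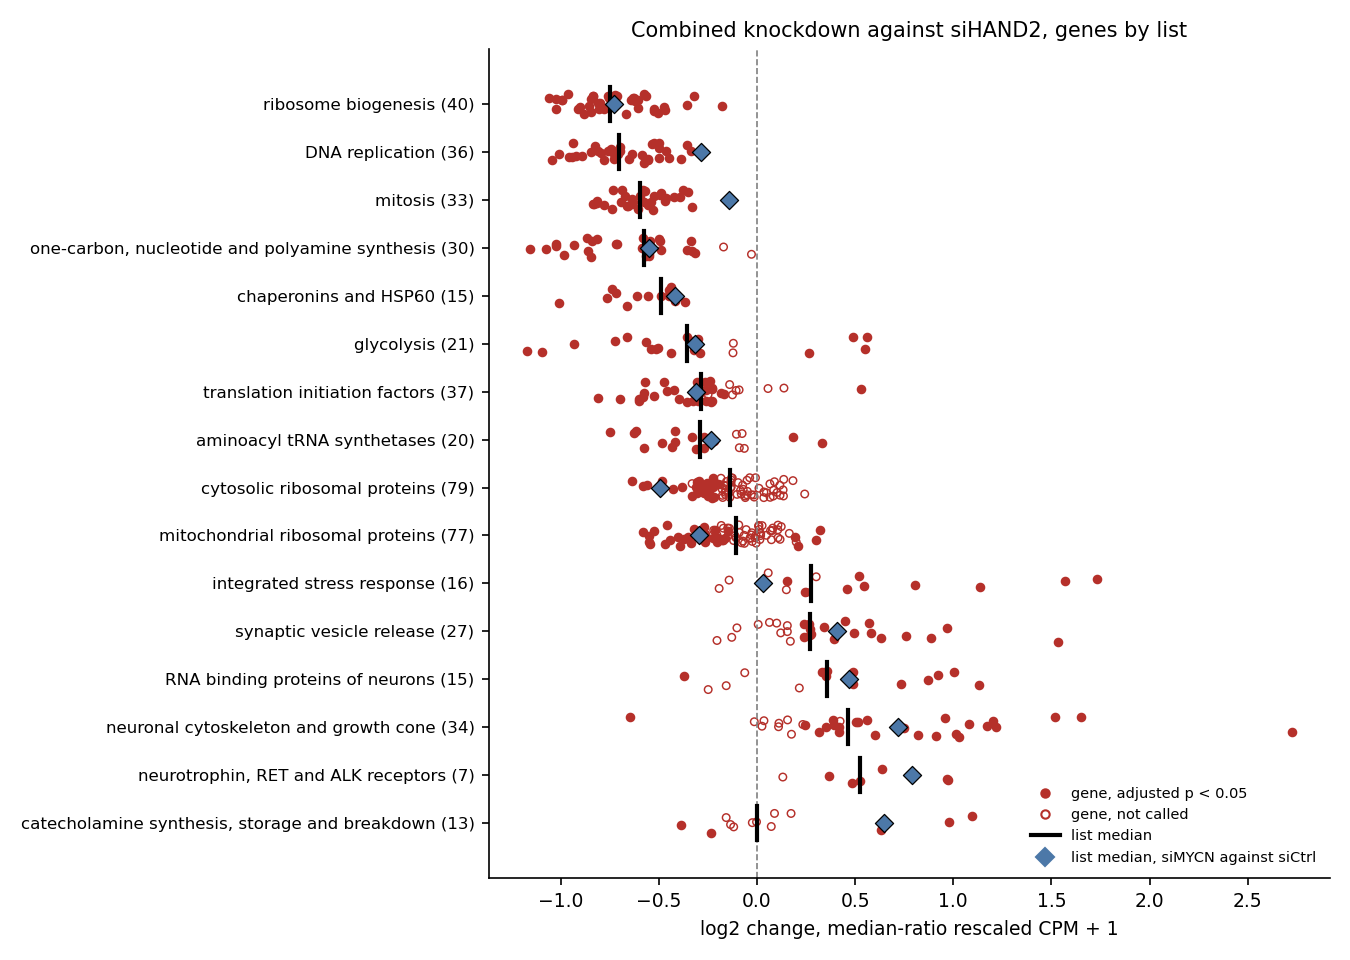
Log2 change of the combined knockdown against siHAND2 on the rescaled scale for each tested gene of 16 lists (number of genes in brackets); filled points are called, open points are not, black bars are list medians and diamonds are the list medians of siMYCN against siCtrl. Ribosome biogenesis has medians of -0.75 and -0.73, while DNA replication and mitosis have -0.70 and -0.60 against -0.28 and -0.14 with MYCN knocked down alone.

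DNA replication fell throughout, and many of its members by more than with MYCN knocked down alone. All 36 members were called lower on both scales (medians -0.88 and -0.70), against 31.5% and 23.6% of all genes. In siMYCN against siCtrl, 16 were called lower, and 26 after rescaling (medians -0.29 and -0.28), against 16.3% and 22.5% of all genes. The interaction was called negative, that is with the larger fall when HAND2 was also knocked down, for 19 on the deposited scale and 21 on the rescaled scale, against 3.65% and 4.47% of all genes, and 19 were called on both. The deposited count ran from 10, without siHAND2 replicate 2, to 34, without combined replicate 1, and the rescaled count from 19 to 23. RRM2, the regulated subunit of ribonucleotide reductase, was at 208, 189 and 159 CPM in siHAND2 and at 93.5, 87.4 and 70.8 CPM in the combined knockdown. The groups did not overlap, and RRM2 changed by -1.14 ± 0.12 (limma adjusted p = 2.1e-07; -0.94 rescaled). Its means in siCtrl and siMYCN were both 268 CPM, with a limma adjusted p of 0.99, and its interaction was -1.14 (adjusted p = 0.00033; -0.95 rescaled).

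Replication licensing and origin factors were among the members that moved furthest. ORC1, of the origin recognition complex, fell by 1.23 and 1.04, CDC6, which loads the MCM helicase, by 1.20 and 1.01, and the helicase subunit MCM4 by 1.16 and 0.96. MCM10 fell by 1.13 and 0.94, MCM2 by 1.12 and 0.92, and FEN1, which trims Okazaki fragments, by 1.09 and 0.89. For CDC6, MCM10 and MCM2 the interactions were -0.73, -0.79 and -0.88 on the deposited scale and -0.55, -0.61 and -0.69 on the rescaled scale. MCM2 averaged 238 CPM in siCtrl and 201 CPM in siMYCN, against 129 CPM in siHAND2 and 59.7 CPM with both siRNAs. The E-box was in 4 of the 32 windows found for the list (12.5%), close to the 10.4% of all promoters.

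Mitosis genes showed the same pattern. All 33 were called lower on both scales (medians -0.79 and -0.60), against 31.5% and 23.6% of all genes. With MYCN knocked down alone, 6 were called lower, and 13 after rescaling (medians -0.15 and -0.14), against 16.3% and 22.5% of all genes. The interaction was called negative for 17 and 24 of them, against 3.65% and 4.47% of all genes, and 17 were called on both scales. The deposited count was 6 without siHAND2 replicate 2 and 29 without combined replicate 1, and the rescaled count lay between 17 and 24. KIF11, the spindle kinesin Eg5, was at 82.0, 78.1 and 68.2 CPM in siHAND2 and at 48.8, 37.5 and 30.3 CPM in the combined knockdown, below every siHAND2 sample. Its change was -0.97 (limma adjusted p = 3.5e-06; -0.78 rescaled), and its interaction -0.92 (-0.73 rescaled). PLK1, a mitotic kinase, fell by 1.02 and 0.83, BUB1B, of the spindle checkpoint, by 1.02 and 0.83, and TPX2, a spindle assembly factor, by 1.01 and 0.81. FOXM1, the transcription factor of the G2/M genes, fell by 0.93 and 0.73. The interactions of TPX2 and FOXM1 were -0.89 and -0.88, and -0.71 and -0.70 rescaled.

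The genes that govern G1 were less uniform. Of 19 tested of 22 listed, 10 were called lower (52.6%, against 31.5% of all genes) and 2 higher (10.5%, against 8.75%), with a median of -0.35. Rescaled counts were 9 lower (47.4%, against 23.6%) and 4 higher (21.1%, against 26.1%), with a median of -0.15. E2F2, an activator of S-phase genes, fell by 0.91 and 0.73, with an interaction of -0.94 (-0.77 rescaled), and the kinase CDK4 fell by 0.78 and 0.58. The CDK inhibitors CDKN2D and CDKN1C rose. CDKN2D went from 3.58 to 7.77 CPM (0.92; 1.10 rescaled) and CDKN1C from 7.50 to 10.9 CPM (0.46; 0.64 rescaled). After rescaling the inhibitors CDKN2C and CDKN1B were also called higher. Without combined replicate 3, 4 members were called higher on the deposited scale.

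Neuronal cytoskeleton and growth cone genes included the largest rise named here, though many of them did not pass the test on the deposited scale. Of 34, 16 were called higher and 1 lower (median 0.26), and after rescaling 24 higher and 1 lower (median 0.46), against 8.75% and 26.1% of all genes called higher. STMN2 (chr8:80523049-80578411), a regulator of microtubules in growth cones, had the largest rise of all genes that met the naming rule. It was at 23.7, 25.2 and 31.0 CPM in siHAND2 and at 198, 151 and 129 CPM in the combined knockdown. The mean rose 5.98-fold, from 26.6 ± 3.84 to 159 ± 35.3 CPM (SD, n = 3), without overlap, which the naming rule required. That is 2.52 ± 0.15 on the log2 scale (limma adjusted p = 2.1e-11), or 2.72 rescaled. GAP43, a growth cone protein, was at 57.3, 63.7 and 69.8 CPM and rose to 222, 169 and 143 CPM (1.45; 1.65 rescaled). STMN4, another stathmin, rose from 13.9 to 37.1 CPM (1.32; 1.52 rescaled).

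DPYSL3, a collapsin response mediator, rose from 149 to 309 CPM (1.02; 1.22 rescaled), and the adhesion molecule CHL1 from 5.34 to 12.0 CPM (1.01; 1.20 rescaled). The tubulins TUBB2A and TUBA1A rose by 0.97 and 0.88, or 1.17 and 1.08 rescaled. Tubulin genes have near-identical copies, so reads may be split between them. The 1 gene called lower was NEFH, the heavy neurofilament, which went from 48.7 to 27.1 CPM (-0.84; -0.64 rescaled). With MYCN knocked down alone, 29 of the list were called higher (17.4% of all genes) and 31 after rescaling (25.4%), with medians of 0.71 and 0.72. The interaction was negative for 5 on the deposited and 7 on the rescaled scale, against 3.65% and 4.47% of all genes. STMN2, at 4.00 CPM in siCtrl and 81.1 in siMYCN, had an interaction of -1.54 (-1.32 rescaled), and STMN4, at 1.30 and 14.2 CPM, one of -1.40 (-1.16 rescaled). Both therefore rose by a larger factor when HAND2 was not knocked down, although both stood highest in the combined samples. Without combined replicate 1 the interaction was negative for 25 of the list on the deposited scale and for 12 on the rescaled scale.

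The remaining large rises included matrix, stress and adaptor genes. TNC, the matrix glycoprotein tenascin-C, was at 18.2, 17.3 and 16.4 CPM in siHAND2 and at 67.1, 62.0 and 38.1 CPM in the combined knockdown (1.59, limma adjusted p = 1.7e-08; 1.79 rescaled). All combined samples were above all siHAND2 samples, which the choice of the 10 largest rises required. ADAMTSL1, a secreted matrix protein, rose from 6.71 to 21.4 CPM (1.54; 1.73 rescaled). OPTN, an autophagy receptor, rose from 9.80 to 27.6 CPM (1.38; 1.57 rescaled), and ANKFN1 from 5.78 to 16.9 CPM (1.40; 1.59 rescaled). AHNAK, a giant scaffold protein, rose from 16.5 to 44.6 CPM (1.37; 1.57 rescaled), levels that were both below its 112 CPM in siCtrl and 375 CPM in siMYCN.

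**Figure D3:**
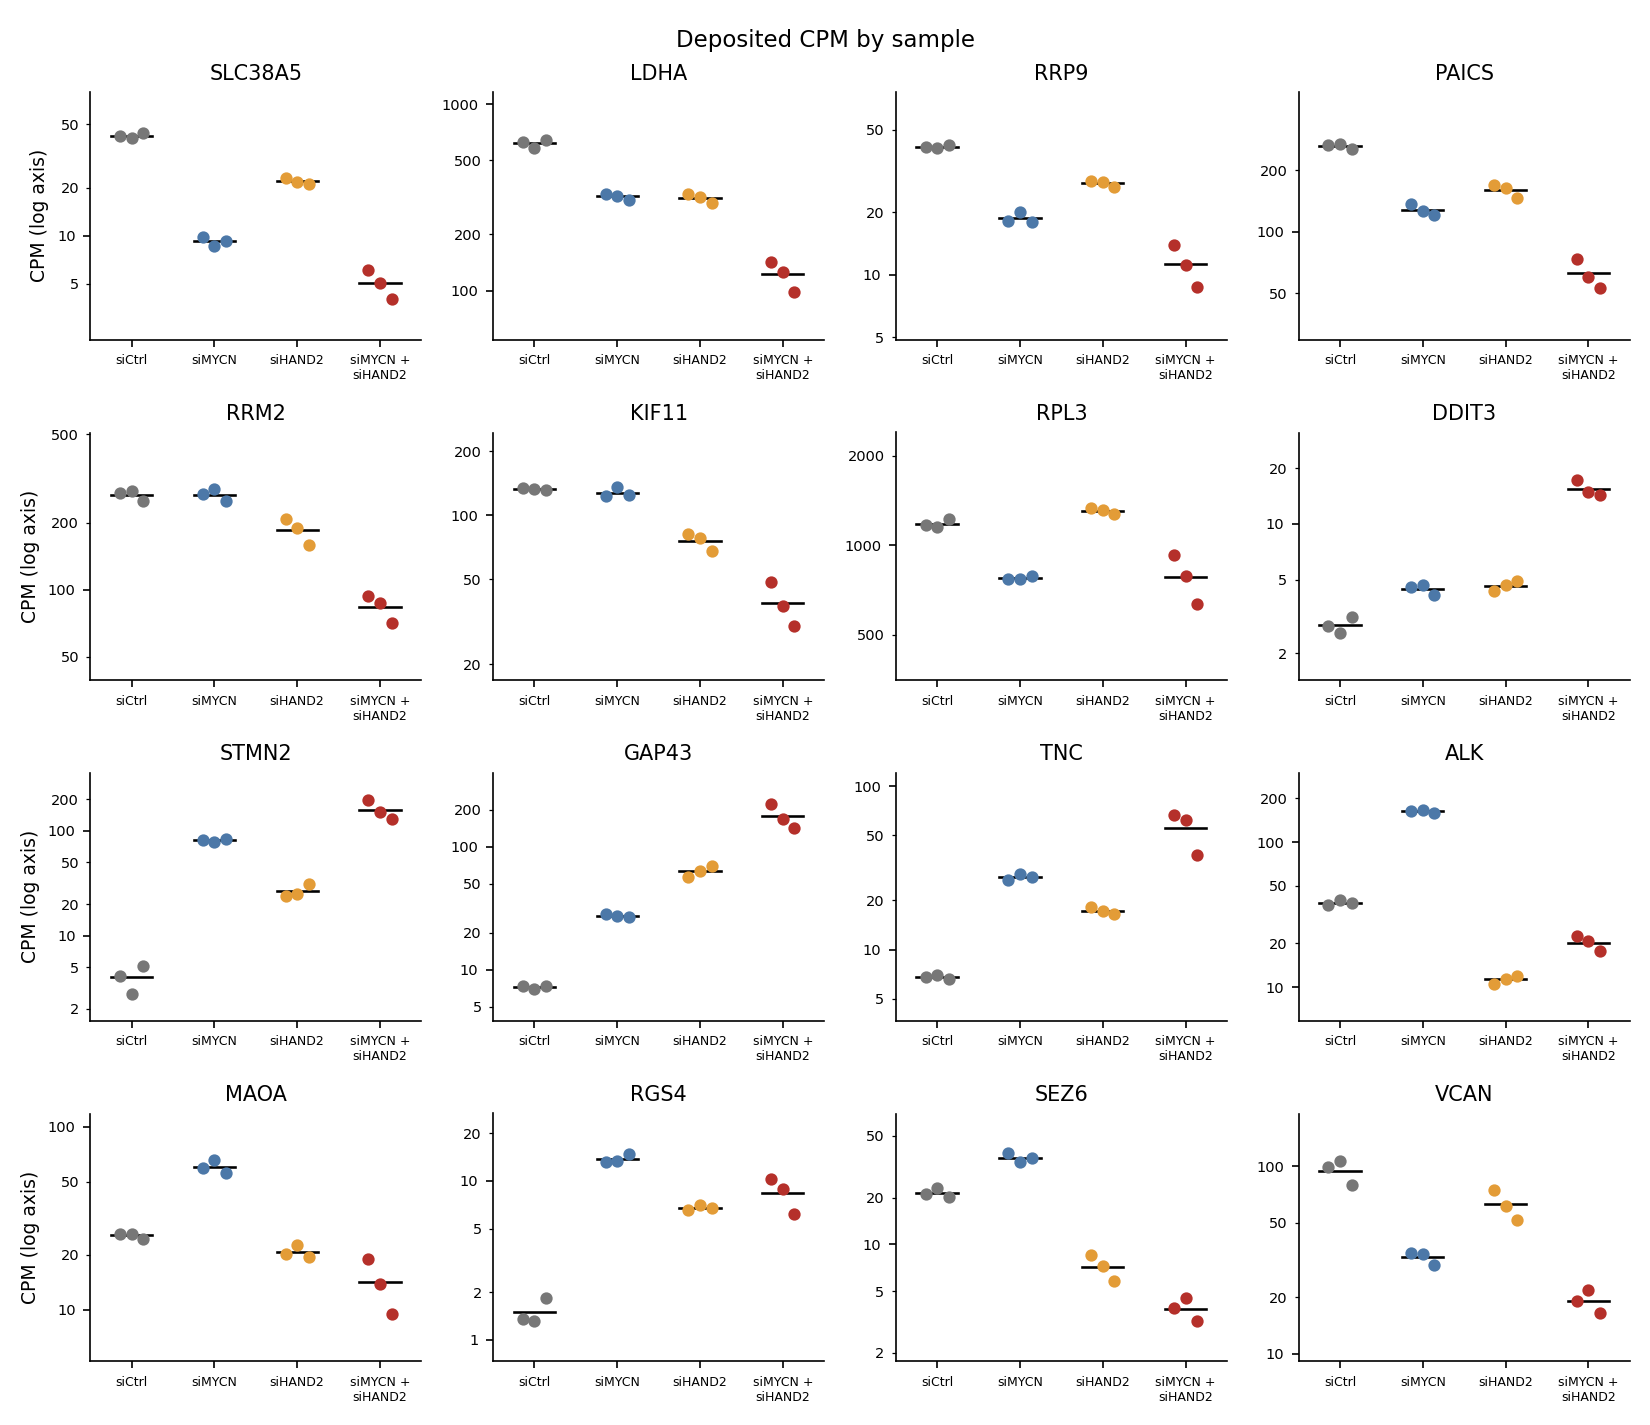
Deposited CPM of 16 genes in each of the 12 samples on log axes; points are samples and lines are group means. SLC38A5, LDHA, RRP9 and PAICS were lower with either MYCN knockdown, RRM2 and KIF11 were near their siCtrl level in siMYCN but lowest in the combined knockdown, and DDIT3 was highest in the combined knockdown, at 14.2 to 17.3 CPM.

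Genes of the integrated stress response, in which ATF4 and its targets answer blocked translation or amino acid shortage, rose in part. Of 16 tested of 20 listed, 5 were called higher and 1 lower (median 0.12), and after rescaling 9 higher and none lower (median 0.28), against 8.75% and 26.1% of all genes called higher. DDIT3, the factor CHOP, was at 4.34, 4.65 and 4.93 CPM in siHAND2 and at 17.3, 14.8 and 14.2 CPM in the combined knockdown. The 3.33-fold rise had no overlap, as was required of the 10 largest rises, and came to 1.54 ± 0.11 (limma adjusted p = 6.1e-10), or 1.73 rescaled. In siMYCN it was at 4.45 CPM against 2.84 in siCtrl, and the interaction was 1.04 (adjusted p = 0.0003; 1.23 rescaled). ATF3, a stress-induced repressor, was at 3.64, 2.88 and 3.71 CPM and rose to 13.5, 10.3 and 8.21 CPM (1.38; 1.57 rescaled), with an interaction of 1.02 (1.21 rescaled). PPP1R15A, which lets translation resume, rose from 12.2 to 24.8 CPM (0.94; 1.13 rescaled).

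ATF4 itself was at 119, 131 and 134 CPM in siHAND2 and at 172, 119 and 113 CPM in the combined knockdown. These samples overlapped, and ATF4 was not called on the deposited scale (0.05, limma adjusted p = 0.8) but was on the rescaled scale (0.25, adjusted p = 0.031). Without combined replicate 1 the deposited value was -0.14. SLC7A11, the cystine carrier, was at 2.64 and 3.52 CPM (0.30, limma adjusted p = 0.082; 0.46, adjusted p = 0.0085 rescaled), and its interaction was 0.87 (1.00 rescaled). The interaction was positive for 3 of the list on the deposited and 6 on the rescaled scale, against 0.355% and 1.67% of all genes. With MYCN knocked down alone, 4 were called higher and 3 lower, and 5 and 3 after rescaling. Of all genes, 17.4% were called higher and 16.3% lower there, or 25.4% and 22.5% after rescaling. Counts of higher calls ran from 4 to 9 on the deposited scale, the most without combined replicate 3. DDIT3 overlaps MARS on the other strand.

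Other neuronal lists had more higher calls on the rescaled scale, as all genes did, with 8.75% of all genes called higher on the deposited scale and 26.1% after rescaling. Synaptic vesicle genes had 7 of 27 higher and 2 lower (median 0.07), and 17 higher (63.0%) and none lower rescaled (median 0.27). SYT11, a synaptotagmin, rose from 181 to 318 CPM (0.77; 0.97 rescaled), a smaller rise than from 67.8 to 245 CPM with MYCN knocked down alone, with an interaction of -1.07 (-0.88 rescaled). RNA binding proteins of neurons had 5 of 15 higher and 2 lower (median 0.17), and 10 higher and 1 lower rescaled (median 0.36). CELF4, a splicing regulator, rose from 9.22 to 17 CPM (0.82; 1.01 rescaled), and RBFOX3, the antigen NeuN, from 11.6 to 19.2 CPM (0.68; 0.87 rescaled). Without combined replicate 3 the deposited counts of higher calls were 13 for the synaptic and 8 for the RNA binding list.

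Ion channels had 7 of 30 higher (23.3%) and 6 lower (median 0.06), and 14 higher (46.7%) and 4 lower rescaled (median 0.24). The sodium channel SCN9A rose from 13.5 to 29.7 CPM (1.08; 1.27 rescaled), with an interaction of -0.75 (-0.53 rescaled), and SCN3A from 42.0 to 72.0 CPM (0.76; 0.96 rescaled). The potassium channel KCNQ5 fell from 1.72 to 0.585 CPM (-0.75; -0.69 rescaled). In siCtrl and siMYCN it stood at 14.4 and 15.4 CPM, and its interaction was -0.84 (-0.79 rescaled). Axon guidance genes had 10 of 34 higher (29.4%, against 8.75% of all genes) and 7 lower (20.6%, against 31.5%), and 13 higher (38.2%, against 26.1%) and 4 lower rescaled. Their medians of -0.12 and 0.07 were close to the -0.15 and 0.03 of all genes. PLXND1, a semaphorin receptor, fell from 23.2 to 8.85 CPM (-1.30; -1.12 rescaled). The netrin receptor DCC was at 9.24 and 14.1 CPM in siHAND2 and the combined knockdown (0.56; 0.75 rescaled), a call lost without combined replicate 2, where the change was 0.38. The 6 channels called lower became 3 without combined replicate 3, and the 7 guidance genes became 3 without it and 12 without combined replicate 1.

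Catecholamine genes, which make, store and break down noradrenaline and dopamine, moved in both directions. Of 13 tested of 18 listed, 3 were called higher (23.1%, against 8.75% of all genes) and 3 lower (23.1%, against 31.5%), with a median of -0.20. Rescaled counts were 3 higher (23.1%, against 26.1%) and 2 lower (15.4%, against 23.6%), with a median of 0.00. SLC6A2, the noradrenaline transporter, was at 6.93, 7.21 and 7.43 CPM in siHAND2 and at 17.6, 14.7 and 11.4 CPM in the combined knockdown, without overlap (0.91, limma adjusted p = 5.8e-06; 1.10 rescaled). SCG2, a secretogranin of dense core vesicles, rose from 125 to 221 CPM (0.78; 0.98 rescaled). MAOA, which breaks down monoamines, was at 20.2, 22.5 and 19.3 CPM in siHAND2 and at 18.9, 13.9 and 9.43 CPM in the combined knockdown. Every combined sample was below every siHAND2 sample, and the change was -0.57 (limma adjusted p = 0.004; -0.38 rescaled).

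With MYCN knocked down alone, 8 of these 13 genes were called higher and none lower (median 0.64), and 9 higher after rescaling (median 0.65). Of all genes, 17.4% and 25.4% were called higher there. The interaction was negative for 7 on both scales, against 3.65% and 4.47% of all genes. The deposited count ran from 4, without siCtrl replicate 2, to 9. MAOA went from 25.5 to 60.2 CPM with siMYCN, and its interaction was -1.78 (limma adjusted p = 1.4e-05; -1.60 rescaled). DBH, which makes noradrenaline, went from 2.65 to 7.99 CPM with siMYCN and was at 0.929 and 0.942 CPM in siHAND2 and the combined knockdown, with an interaction of -1.29 (-1.18 rescaled). CHGB, a granin, was at 38.3 and 60.1 CPM, and at 68.4 and 54.7 CPM, with an interaction of -0.99 (-0.80 rescaled). Lower calls numbered 1 without siHAND2 replicate 2 and 7 without combined replicate 1.

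Of 7 tested neurotrophin, RET and ALK receptor genes, which serve neuroblast growth and survival, 4 were called higher and none lower (median 0.36). After rescaling 6 were higher (median 0.52), against 8.75% and 26.1% of all genes called higher on the 2 scales. ALK, a receptor kinase mutated in some neuroblastomas, was at 10.6, 11.4 and 12.0 CPM in siHAND2 and at 22.5, 20.7 and 17.7 CPM in the combined knockdown. The 1.79-fold rise had no overlap (0.78, limma adjusted p = 5e-06; 0.97 rescaled). From siCtrl to siMYCN it had gone from 38.1 to 163 CPM, and the interaction was -1.28 (-1.10 rescaled). NTRK3, a neurotrophin-3 receptor, rose from 7.52 to 13.6 CPM (0.78; 0.97 rescaled).

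The adrenergic transcription factors, to which HAND2 belongs, had 3 of 24 called higher (12.5%, against 8.75% of all genes) and 3 lower (12.5%, against 31.5%). Rescaled counts were 11 higher, HAND2 among them (45.8%, against 26.1%), and 1 lower (4.17%, against 23.6%). Their medians were 0.05 and 0.22. PHOX2A, a determinant of noradrenergic neurons, was at 15.4, 17.2 and 15.4 CPM in siHAND2 and at 34.4, 26.3 and 20.5 CPM in the combined knockdown, without overlap (0.70; 0.89 rescaled). ISL1 rose from 47.2 to 64.2 CPM (0.43; 0.63 rescaled), and MEIS2 fell from 3.96 to 2.04 CPM (-0.71; -0.58 rescaled). SOX4 was at 248 and 284 CPM, against 112 and 249 CPM in siCtrl and siMYCN, with an interaction of -0.98 (-0.79 rescaled). Without combined replicate 3, 7 of the list were called higher on the deposited scale. PHOX2A overlaps INPPL1 on the other strand.

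Among 12 tested ID, E protein and HES factors, which modulate basic helix-loop-helix proteins, 2 were called higher and 2 lower (16.7% each, against 8.75% and 31.5% of all genes). Rescaled counts were 4 higher (33.3%, against 26.1%) and 2 lower (16.7%, against 23.6%). ID4 rose from 5.94 to 13.2 CPM (1.01; 1.20 rescaled) and ID2 from 29.1 to 42.4 CPM (0.52; 0.71 rescaled), while HES6 fell from 22.2 to 10.4 CPM (-1.03; -0.85 rescaled). Of the MYC network, the paralogues, partners and antagonists of MYCN with MYCN itself left out, 6 of 10 were called lower and none higher. The median was -0.31, and 31.5% of all genes were called lower and 8.75% higher. After rescaling 2 were lower and 1 higher (median -0.12), against 23.6% and 26.1% of all genes. MYCL, a paralogue, fell from 3.01 to 1.56 CPM (-0.66; -0.55 rescaled), and the antagonist MXD3 from 5.98 to 4.23 CPM (-0.43; -0.27 rescaled). The 6 became 3 without combined replicate 3 or without siHAND2 replicate 2.

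Mesenchymal identity genes had 7 of 16 tested called lower (43.8%, against 31.5% of all genes) and 1 higher (median -0.24). After rescaling 4 were lower, near the 23.6% of all genes, and 3 higher (median -0.10). The 7 became 3 without siHAND2 replicate 1. NES, the intermediate filament nestin, fell from 91.3 to 44.8 CPM (-1.06; -0.86 rescaled). CD44, a hyaluronan receptor, fell from 2.80 to 0.973 CPM (-0.94; -0.85 rescaled), while its levels in siCtrl and siMYCN were 6.26 and 6.38 CPM and its interaction was -0.97 (-0.89 rescaled). Matrix genes had 13 of 28 lower (46.4%, against 31.5% of all genes) and 6 higher (21.4%, against 8.75%). Rescaled counts were 12 lower (42.9%, against 23.6%) and 9 higher (32.1%, against 26.1%). Their medians were -0.21 and -0.04, against -0.15 and 0.03 for all genes. FBN2, a microfibril protein, fell by 1.15 and 1.00, the laminin LAMA1 by 1.14 and 1.02, the basement membrane collagen COL4A1 by 1.05 and 0.87, and the heparan sulfatase SULF2 by 0.99 and 0.83. Among those that rose were SPOCK1 (0.79; 0.98 rescaled) and the laminin LAMA5 (0.50; 0.70 rescaled).

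Markers of cell types other than neuroblasts were low. Of 9 fibroblast markers 4 passed the filter, 3 were called lower and none higher on both scales, and their summed level was 65.9 to 78.7 CPM in siHAND2 and 39 to 60.9 CPM in the combined knockdown. FAP was listed at 0, and DCN, LUM, COL1A2 and COL3A1 averaged under 1 CPM. Most of that sum was PDGFRA, which went from 52.8 to 35.2 CPM (-0.59; -0.40 rescaled), against 104 and 140 CPM in siCtrl and siMYCN, with an interaction of -1.02 (-0.84 rescaled). PDGFRB fell from 6.58 to 3.52 CPM (-0.76; -0.61 rescaled). Schwann cell markers summed to 12.2 to 13.2 CPM and 10.6 to 14.8 CPM with 2 of 9 tested, and endothelial markers to 1.01 to 1.95 and 1.34 to 2.11 CPM with 1 of 6 tested. None of 6 leukocyte markers passed the filter, with sums of 0.507 to 0.744 and 0.875 to 0.985 CPM and CD3E listed at 0. The part of other cells in the results was not tested.

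The p53 targets had 8 of 20 called lower and 2 higher, not far from the 31.5% and 8.75% of all genes (median -0.22). After rescaling 7 were lower and 7 higher (35.0% each, against 23.6% and 26.1%; median -0.03). AEN, a nuclease, fell from 50.7 to 21.0 CPM (-1.25; -1.06 rescaled), and MDM2, the ubiquitin ligase of p53, from 163 to 120 CPM (-0.45; -0.25 rescaled). TP53INP1 was at 67.4 and 84.8 CPM (0.32; 0.52 rescaled), with an interaction of -1.03 (-0.84 rescaled). Its deposited call was lost in 8 of the 12 fits without a single sample, in which the change lay between 0.24 and 0.46, with the lowest value without combined replicate 2. Of 13 genes of the BCL2 family, 4 were lower (30.8%) and 1 higher (7.69%), near the shares of all genes, and after rescaling 2 lower (15.4%) and 6 higher (46.2%). The pro-apoptotic BAX fell from 13.5 to 9.08 CPM (-0.57; -0.39 rescaled), and BMF rose from 11.7 to 16.6 CPM (0.46; 0.65 rescaled). Higher calls among p53 targets numbered 6, and in the BCL2 family 4, without combined replicate 3 on the deposited scale.

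Nuclear long noncoding transcripts had 4 of 12 called higher (33.3%, against 8.75% of all genes) and 1 lower (8.33%, against 31.5%). Rescaled, 5 were higher (41.7%, against 26.1%) and none lower, with a median of 0.17. MIAT rose from 57.8 to 116 CPM (1.03; 1.22 rescaled). Interferon response genes had 3 of 9 lower (33.3%) and 1 higher (11.1%), near the 31.5% and 8.75% of all genes, and 3 and 3 rescaled. Of 6 antigen presentation genes 1 was lower (16.7%, against 31.5% of all genes) and none after rescaling (against 23.6%). None of the 13 mitochondrially encoded transcripts looked for was found in the table by symbol. Its other entries on chromosome M made up 0.145% ± 0.043 of reads in siHAND2 and 0.189% ± 0.035 in the combined knockdown (SD, n = 3; exact permutation p = 0.3).

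The difference between MYCN knockdown with and without HAND2 knockdown was called for 508 genes on the deposited scale (4.01%), 45 positive and 463 negative, and for 779 on the rescaled scale (6.14%), 212 positive and 567 negative. The median interaction of all genes was -0.18 on the deposited scale, where 22.4% were above 0, and -0.0091 on the rescaled scale, where 48.3% were. The deposited count of calls rose to 4443 without combined replicate 1, and the rescaled one to 1436. Of the 463, 135 had a positive change in both comparisons, 134 had a negative change in both, and 194 had a positive change with siMYCN alone and a negative one in the combined knockdown, whether or not each change was called. Of the 567 on the rescaled scale these numbers were 213, 182 and 172. RGS4, a regulator of G protein signalling, had the most negative interaction of the rule. Its level went from 1.51 CPM in siCtrl to 13.8 CPM with siMYCN, and from 6.78 CPM in siHAND2 to 8.46 CPM with both siRNAs, with an interaction of -2.31 (limma adjusted p = 5.5e-08; -2.09 rescaled). Its change between the last groups, 0.26, was called only after rescaling (0.44) and, without combined replicate 3, was 0.44.

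The calcium binding protein CALB1 stood at 4.11, 20.3, 3.77 and 5.14 CPM in the same order of groups, with an interaction of -1.73 (-1.55 rescaled). NRP1, a coreceptor of semaphorins and VEGF, stood at 9.87, 49.7, 6.51 and 10.6 CPM, with an interaction of -1.63 (-1.45 rescaled). DCC stood at 5.03, 19.4, 9.24 and 14.1 CPM, with -1.21 (-1.01 rescaled). SEZ6, a neuronal membrane protein, rose from 21.4 to 36.2 CPM with siMYCN and fell from 7.20 to 3.86 CPM in the combined knockdown (-0.75; -0.59 rescaled), with an interaction of -1.48 (-1.33 rescaled).

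Of the positive interactions, DDIT3 and ATF3 are described above. VEGFD, a lymphatic growth factor, had 1.21 (1.28 rescaled), from 62.3 CPM in siCtrl and 30.3 in siMYCN. Its 0.0387, 0.765 and 0.914 CPM in siHAND2 and 0.812, 0.756 and 0.629 CPM in the combined knockdown overlapped, and the lowest is under the level of 3 reads. With siMYCN alone VEGFD changed by -1.02 (-1.01 rescaled). From so low a siHAND2 level log2(CPM + 1) cannot fall that far, so the interaction had to be positive. GOLGA8A, a member of a multigene family, was at 16.8, 8.45, 12.1 and 12.5 CPM, with 1.00 (1.17 rescaled). USP32P1, a pseudogene, was at 5.61, 3.11, 5.40 and 6.33 CPM, with 0.89 (1.05 rescaled). VEGFD and USP32P1 overlap other listed genes, and reads of GOLGA8A and USP32P1 may belong to near-identical copies, so the values of all 3 are uncertain.

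Across the 12680 genes, the changes in the 2 comparisons, which share no sample, had a Pearson r of 0.75 and a slope of 0.71 for the combined knockdown against siHAND2 on siMYCN against siCtrl, and 0.76 and 0.73 after rescaling. These are descriptions over genes, which are not independent replicates. On the rescaled scale 4230 genes were called in both comparisons, which is 67.1% of the calls here and 69.7% of those of siMYCN, and 4189 of them (99.0%) had the same direction. The other 41 had opposite directions, 28 of them lower and 13 higher in the combined knockdown. On the deposited scale 2584 were called in both (50.6% and 60.5%), and 2552 had the same direction. MAOA and SEZ6 were among the 32 that did not.

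**Figure D4:**
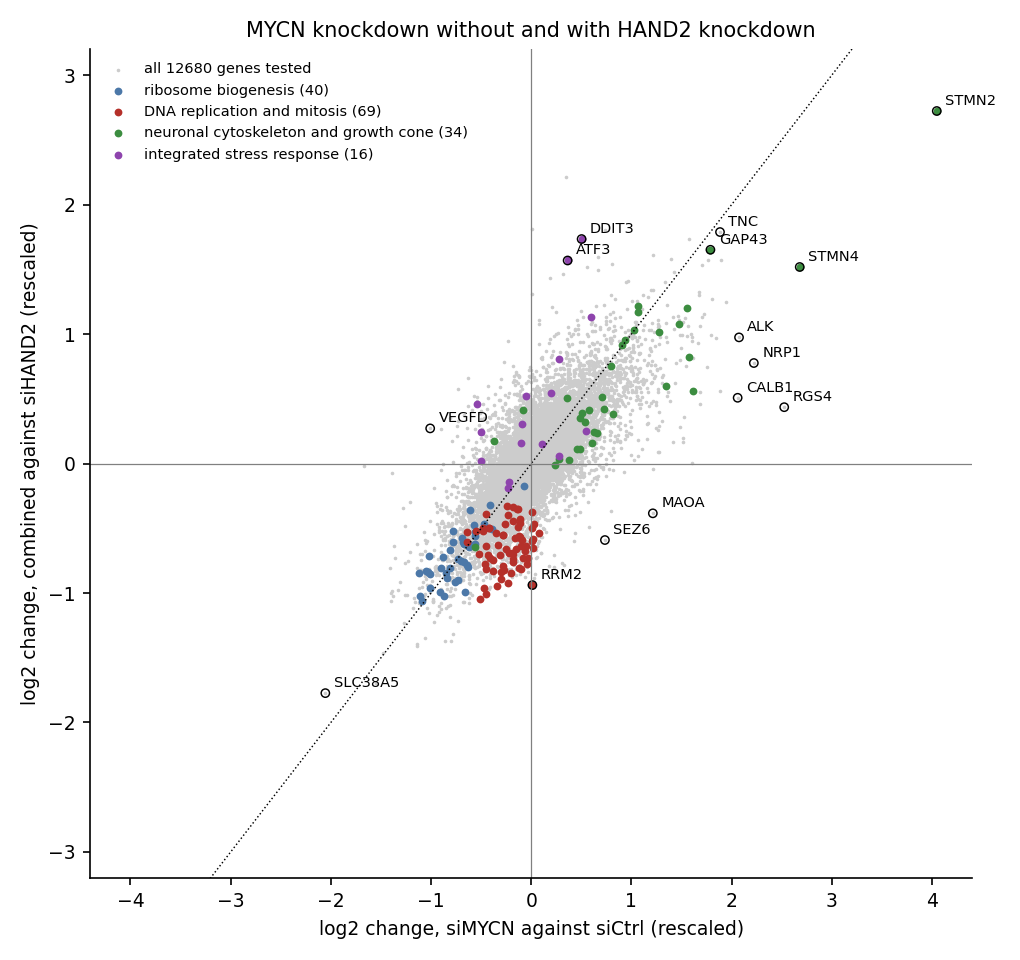
Log2 change on the rescaled scale for siMYCN against siCtrl (x axis) and the combined knockdown against siHAND2 (y axis), 1 point per gene for the 12680 genes tested, with 4 lists in colour and the dotted line marking equal change. Ribosome biogenesis lies along that line, DNA replication and mitosis lie below it, and DDIT3 and ATF3 lie above it, at 0.50 and 0.36 on the x axis and 1.73 and 1.57 on the y axis.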

How the data were processed

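Per the labels' protocols, total RNA of siRNA-treated IMR32 cells was sequenced. The authors deposited CPM values (read counts scaled to library size) for 27514 genes in 12 samples, with 0.0001 added to each. STAR 2.5.1, Partek and the hg19 build are named in the submitters' processing notes. The counting rule, its use of strand and the annotation are not given in the sources used here. When divided by the value of 1 read, 88.6 to 90.2% of values under 20 reads and 66.1 to 81.1% of values of 20 to 200 reads were whole within 0.05 reads. This is under the 95% required, so no count model was used.

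Values were analysed as log2(CPM + 1), which understates changes of low genes, for genes with a mean of at least 1 CPM. A model with 4 groups was fitted with limma 3.58.1 (lmFit, eBayes with trend) in R 4.3.3, as deposited and after median-ratio rescaling. The fit was also run on data simulated from the deposited scale, for the combined knockdown against siHAND2 only. That simulation drew noise independently for each gene, without a shift shared by the genes of a library, so it cannot test how such shifts are handled. Called means a Benjamini-Hochberg adjusted p under 0.05 over all genes tested, two-sided. The interaction is the combined-minus-siHAND2 change minus the siMYCN-minus-siCtrl change. No 2 samples were counted as 1 library, since all pairs of a group differed beyond sampling noise (chi-square per gene of 3.35 or more).

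The comparison, the 37 gene lists (957 genes) and the naming rule were chosen with earlier results of these data known. The rule takes MYCN and HAND2, the 10 largest rises and falls among genes with a mean of at least 5 CPM that were called alike and did not overlap on both scales, and the 5 largest interactions of each sign called on both scales. It also takes list members, in general those with the largest change. List members given as examples of the interaction were chosen after their values were seen, with preference for genes whose call held when single samples were left out, so the examples are steadier than the lists. The counts cover every tested member, except that MYCN was left out of its own network after the values were seen.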

Additional observations from a re-analysis of the deposited data

Results flagged for a closer look

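The MYCN siRNA had a different effect with and without the HAND2 siRNA for 508 genes on the deposited scale, by limma's test of the difference between the 2 effects (adjusted p under 0.05). That test also picked out every gene in this paragraph, with the log2 difference on the deposited scale given, and a negative value means a change further downward in the combined knockdown. Over all 12680 genes the median difference was -0.18 on this scale and -0.0091 after rescaling, so the deposited values include a shift common to most genes. Of the 508, 45 were positive and 463 negative, against 212 and 567 of the 779 called after rescaling. The genes are those named in the text, not all of the 508. Among them the most negative values were -2.31 for RGS4, -1.78 for MAOA, -1.73 for CALB1, -1.63 for NRP1, -1.54 for STMN2, -1.48 for SEZ6 and -1.40 for STMN4. Further values were -1.32 for PLCB1, -1.29 for DBH, -1.28 for ALK, -1.24 for CRABP2, -1.21 for DCC, -1.07 for SYT11, -1.03 for TP53INP1 and -1.02 for PDGFRA. Cell cycle genes had -1.14 for RRM2, -0.94 for E2F2, -0.92 for KIF11, -0.89 for TPX2, -0.88 for FOXM1, -0.88 for MCM2, -0.79 for MCM10 and -0.73 for CDC6. The others were -0.99 for CHGB, -0.98 for SOX4, -0.97 for CD44, -0.84 for KCNQ5, -0.75 for SCN9A and -0.64 for MTHFD1. Positive values were 1.21 for VEGFD, 1.15 for CPT1B, 1.04 for DDIT3, 1.02 for ATF3, 1.00 for GOLGA8A, 0.96 for EPHA8, 0.89 for USP32P1 and 0.87 for SLC7A11. The sign for VEGFD was fixed by its low siHAND2 level, from which it could not fall as far as with siMYCN alone. The causes were not tested.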

How the results depend on the processing

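The number of genes called higher in the combined knockdown, 1109 on the deposited scale, became 3305 with median-ratio rescaling, 3473 with scaling to the listed-gene sum, 3534 with rescaling and the replicate block, and 663 at an adjusted p under 0.01. Requiring a log2 change of at least 1 left 213 called genes (46 higher, 167 lower), or 175 (119 and 56) after rescaling. With single samples left out, called genes ranged from 3905 to 6962, higher calls from 826 to 1793 and lower calls from 3079 to 6010, and after rescaling higher calls from 2704 to 3345 and lower calls from 2622 to 2969. Interaction calls, 508 (45 positive, 463 negative), became 779 (212 positive) with rescaling, 795 (163 positive) with the listed-gene sum, 156 (123 negative) without a filter, 169 (18 and 151) at an adjusted p under 0.01, and 69 (12 and 57) with a minimum change, or 50 (21 and 29) after rescaling. Positive calls were 23 at a mean of at least 5 CPM. With single samples left out, interaction calls ranged from 263 to 4443 (positive 28 to 187, negative 235 to 4256), and after rescaling from 415 to 1436 (positive 84 to 528, negative 331 to 908), with the most without combined replicate 1 and the fewest without siMYCN replicate 2. A fit with the replicate block gave 5839 called genes (1292 higher, 4547 lower) and 1282 interaction calls (126 and 1156), and with rescaling 1262 interaction calls (476 and 786). Same-numbered siHAND2 and combined samples had correlations of -0.10, -0.19 and 0.36 in their deviations, and siHAND2 replicate 1 correlated best with combined replicate 2, so the numbers were not taken as a pairing. Same-numbered siCtrl and siMYCN samples, which enter the interaction, had 0.44, 0.15 and 0.31, each the highest for its number. The rescaling factors also fell from replicate 1 to replicate 3 in all 4 groups. The numbers that open the sample descriptions are lowest for replicate 1 and highest for replicate 3. Whether the replicate numbers mark shared rounds was not tested.

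HAND2 was called with the listed-gene sum (0.45), with rescaling (0.43) and with rescaling and the block (0.43), and ranged from 0.11 to 0.29 with single samples left out. MYCN ranged from -0.93 to -0.75, and the correlation across genes from 0.71 to 0.81. Reversed signs occurred when single samples were left out for VEGFD (-0.087 to 0.35), GOLGA8A (-0.16 to 0.30) and ATF4 (-0.14 to 0.16). List medians reversed for oxidative phosphorylation (0.11 with the listed-gene sum). Over both scales with single samples left out, that median ranged from -0.25 to 0.12, that of axon guidance from -0.18 to 0.14 and that of interferon genes from -0.25 to 0.026. They also reversed for nuclear noncoding transcripts (-0.14) and Schwann markers (-0.15) at a mean of at least 5 CPM. The causes were not tested. An alternative without mitochondrial symbols could not be run because the table has none of them, and leaving out chromosome M genes moved the difference in read share to -8.09. Genes under 0.0950 CPM lie below 3 reads in at least 1 library.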

Other observations

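MYC, the paralogue of MYCN (chr8:128748315-128753681), was under the filter of a mean of at least 1 CPM and was chosen after its values were seen. It was at 0.0317, 0.236 and 0.214 CPM in siHAND2 (1, 8 and 9 reads) and at 2.60, 2.28 and 1.68 CPM in the combined knockdown (167, 88 and 69 reads). The groups did not overlap. In siCtrl it averaged 0.155 CPM and in siMYCN 0.739 CPM. In a fit of 21116 genes without a filter, its change was 1.45 ± 0.12 on the log2(CPM + 1) scale (SE, limma adjusted p = 8.03e-05), that of siMYCN against siCtrl 0.59 (adjusted p = 0.00511), and the interaction 0.86 (adjusted p = 0.0423). The exact permutation p for the combined knockdown against siHAND2 was 0.1, the smallest that 3 against 3 samples can give.

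Some genes outside the lists, also chosen after their values were seen, were called in opposite directions in the 2 comparisons. PLCB1, a phospholipase of G protein signalling, rose from 17.1 to 30.3 CPM with siMYCN alone and fell from 6.36 to 4.12 CPM in the combined knockdown (-0.53; -0.37 rescaled). CRABP2, which carries retinoic acid to its receptor, rose from 34.5 to 51.6 CPM and fell from 15.7 to 9.64 CPM (-0.67; -0.49 rescaled). In the other direction, CPT1B, a carnitine palmitoyltransferase, fell from 4.91 to 2.80 CPM and rose from 3.28 to 4.96 CPM (0.49; 0.66 rescaled). With single samples left out on the deposited scale, that call was lost without combined replicate 3 (0.41) and without siHAND2 replicate 1 (0.32). EPHA8, an ephrin receptor, fell from 1.21 to 0.446 CPM and rose from 4.95 to 6.54 CPM (0.34; 0.52 rescaled). On the deposited scale that call was lost without combined replicate 2 (0.34), without siHAND2 replicate 2 (0.31) or without siHAND2 replicate 3 (0.30), and with a pseudocount of 0.1. The calls of PLCB1 and CRABP2 in the combined knockdown against siHAND2 held on the deposited scale with each of the 12 samples left out in turn.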
